A study of Arabidopsis thaliana with 12 samples.

Results

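Roots of an Arabidopsis thaliana line with an inducible Dof1.1 gene were compared with and without the inducer, over all 16548 genes that the array table names singly. The comparison rests on 4 of the 12 arrays of the series. Of these, 2 came from roots treated with estriol, an estrogen, and 2 from mock-treated roots of the same line. The genotype is given as ER8Dof1.1/S32/Col, where ER8 is a vector that switches its insert on in response to an estrogen. Plants aged 68 h were moved to plates with 10 µM estriol or without it for 16 h, entire roots were collected, and each group had 2 biological replicates per the sample titles. All plants were raised on GM plates in continuous light. The lines used for contrast carried Dof2.2 or PEAR2 in ER8 in the background SUC2p::GFP-GUS, with the same treatment and 2 arrays in each of their estriol and mock groups. The mock-treated plants carry the transgene as well. Plants lacking any Dof transgene were not analysed here, so effects of Dof1.1 and of estriol cannot be told apart. The labels name neither the promoter behind the vector's activator nor how many transformants the line stands for.

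Dof proteins are plant transcription factors with a single zinc finger that bind DNA around an AAAG core. Several are active in phloem, which carries sugars through the plant, and the PEAR members promote divisions of cells around the early sieve element in the root. An inducible line asks which transcripts of the root change within hours when such a factor is switched on. Dof1.1's own transcript was not analysed here: none of the entries used names it alone, and the annotation gives no measured gene a Dof name.

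Levels are log2 signals, so a change of 1 is a 2-fold change. Array medians of the Dof1.1 line lay between 5.94 and 6.16, with 5.41 to 5.58 for Dof2.2 and 6.48 to 6.57 for PEAR2, so changes were always taken within a line. The 2 estriol arrays correlated at 0.9914, the 2 mock arrays at 0.9901, and estriol with mock arrays at 0.9101 to 0.9172. A group mean under the lower quartile of all entries, which was 3.565 in estriol and 3.55 in mock roots, is called dim here, as the data give no sign that it exceeds background. In bulk roots, fewer cells of a type and less RNA per cell cannot be told apart. The number of arrays limits the precision.

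Induction was followed by many moderate rises and fewer but larger falls. With limma and Benjamini-Hochberg adjustment over all genes, 5623 of 16548 genes passed an adjusted p of 0.05, which is 34%. Of these, 2940 rose (17.8%) and 2683 fell (16.2%). The median rise was 0.84 and the median fall was -1.44, so changes of at least 2-fold were split the other way, with 1156 rises (6.99%) and 1909 falls (11.5%). In 63.2% of genes the estriol and mock arrays did not overlap. The risers had a median level of 7.31 in estriol roots and 6.12 in mock roots, and 555 of them were dim in mock roots. The fallers had a median level of 5.11 in estriol roots and 7.05 in mock roots, and 545 of them were dim in estriol roots. The median change of all genes was 0.11, or 0.096 after quantile normalization over all arrays and 0.0838 after centring on the 75th percentile. List medians below are to be read against that shift.

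Only 1797 of the tested genes carry a symbol in the annotation used. Of those, 344 rose (19.1%) and 336 fell (18.7%). Gene lists were read from symbols and synonyms, so a family whose members are known by locus alone is seen in part. They were drawn up with earlier results of these data known. Many lists were not among the families first planned. These include the DNA replication and repair, RNA polymerase, chromatin remodelling, meiosis, Mediator, splicing, monolignol, TBL and hemicellulose backbone lists. They also include the PUB, UBP, jacalin, methionine sulfoxide reductase, CHX, YUC, IQD, TRM, glutamate receptor, and SEC and VPS lists. The mitosis list stands in place of a planned family of cyclins, kinesins and mitotic proteins. Lists can share genes, so their counts are not separate results. The shares of all lists describe these data and are no independent support. List counts are to be read beside the 17.8% of all genes that rose and the 16.2% that fell.

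**Figure D1:**
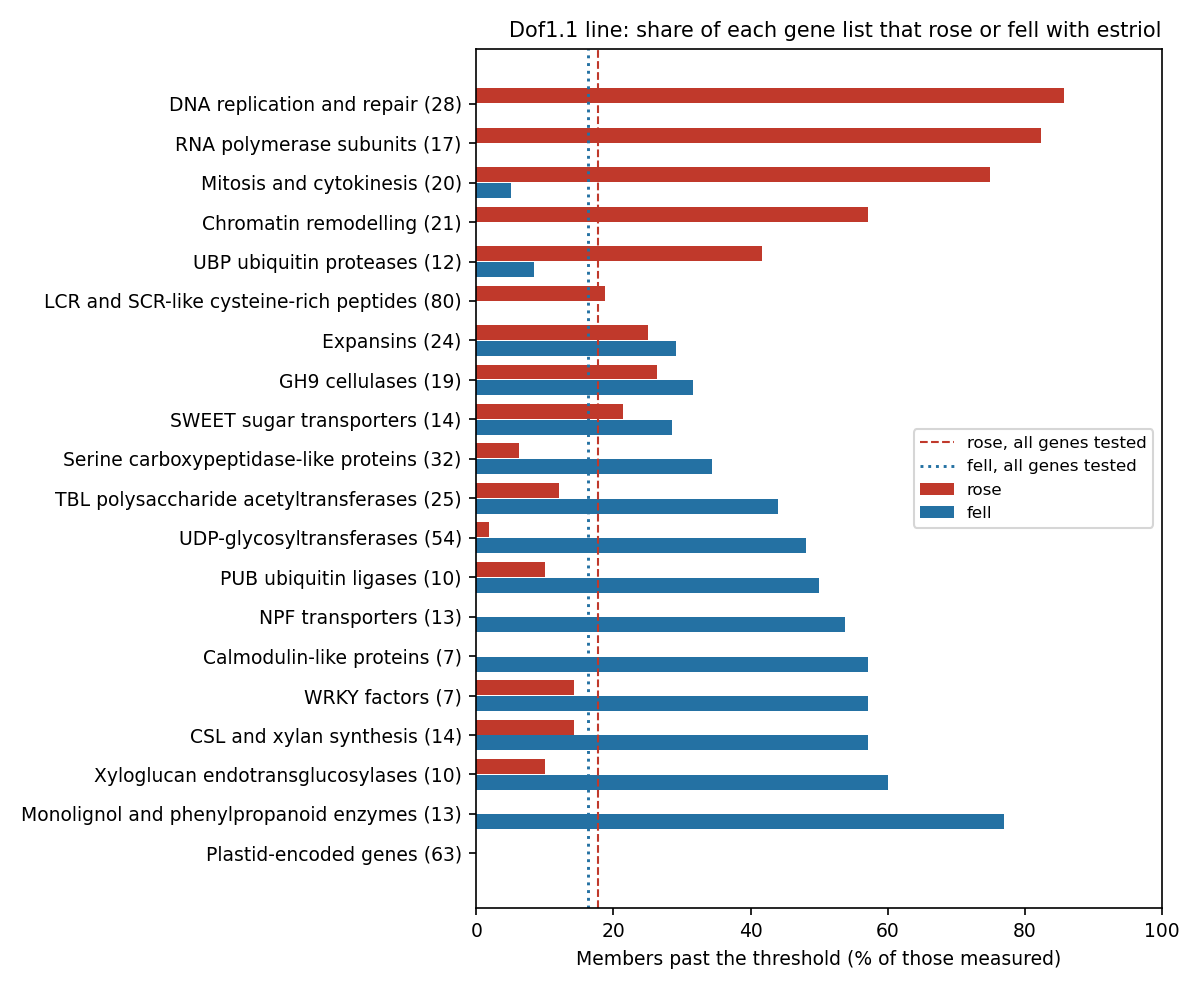
Bars give the percentage of measured members of each gene list that rose (red) or fell (blue) in estriol against mock roots of the Dof1.1 line, with the number measured in brackets, and vertical lines give the same shares over all 16548 genes. The replication, polymerase and mitosis lists reach 75% to 85.7% risen, the monolignol list reaches 76.9% fallen, and the plastid-encoded genes have no bar.

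Most of the listed genes that copy and repair DNA rose. Of 28 measured members of this list, 24 rose and none fell, and the median change was 0.78. At an unadjusted p under 0.05 in limma, 25 were higher and 0 lower. BRCA2B, a loader of the recombinase used in homologous recombination, had 9.35 and 9.09 in estriol roots, against 7.16 and 6.64 in mock roots. It rose by 2.32 ± 0.21 (SE, adjusted p = 1.69e-05), the highest change of the list. POLH, a DNA polymerase that copies past damaged bases, had 8.48 and 7.9 in estriol roots, against 6.06 and 5.93 in mock roots, a change of 2.19 ± 0.25 (adjusted p = 7.46e-05). Next in size were RAD9, part of a checkpoint clamp on damaged DNA, at 1.34 ± 0.18, and RECQ4B, a helicase of recombination intermediates, at 1.19 ± 0.13. These 4 genes were named by a rule that required estriol and mock arrays not to overlap, so their separation is no further support.

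Parts of the replication machinery proper, and the crossover helicase FANCM, had smaller changes of the same sign. PRL, a subunit of the MCM helicase that opens replication origins, had 9.4 and 9.17 in estriol roots, against 8.37 and 8.37 in mock roots (change 0.92 ± 0.15, adjusted p = 0.000975). ICU2, the catalytic subunit of DNA polymerase alpha, changed by 0.95 ± 0.17, and POLA3, a subunit of its primase, by 1.07 ± 0.17. POLD3, an accessory subunit of DNA polymerase delta, changed by 1.12 ± 0.17, FANCM, a helicase that limits crossovers, by 1.1 ± 0.17, and TOPII, a topoisomerase, by 0.69 ± 0.13. All 6 of these rose. The 4 members that did not pass were STN1 at 0.43, APTX at 0.38, RAD4 at 0.07 and WRNEXO at -0.32. ICU2, POLA3, POLD3, FANCM, TOPII and these 4 were chosen after their values were seen. Only 8 members rose at least 2-fold.

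Genes of mitosis and cytokinesis behaved likewise, with 15 of 20 risen, 1 fallen and a median change of 0.84. CDC27a, a subunit of the complex that marks mitotic cyclins for destruction, had 8.54 and 8.54 in estriol roots, against 6.73 and 6.78 in mock roots. Its change of 1.78 ± 0.14 (adjusted p = 5e-06) was the highest of the list. AUR1, an Aurora kinase of the spindle and the division plane, had 10.62 and 10.84 in estriol roots, against 9.2 and 9.54 in mock roots (change 1.36 ± 0.15, adjusted p = 7.61e-05). Both genes were named under the same requirement that their arrays not overlap. The related kinases AUR2 and AUR3 rose by 1.08 ± 0.15 and 0.88 ± 0.17. HTR12, the histone H3 of centromeres, rose by 1.17 ± 0.15, the condensin subunit ATSMC2 by 1.13 ± 0.25, and TUBG1, the gamma-tubulin that nucleates microtubules, by 1.11 ± 0.15. The spindle checkpoint genes BUB3.2 and BUBR1 rose by 1.04 ± 0.18 and 0.95 ± 0.17, and with AUR3 were named after their values were seen. ATMAP65-6, a microtubule-associated protein, fell by 0.48 (SE 0.14, adjusted p = 0.0248), and that call was lost on the arrays of this line alone (adjusted p = 0.0899) and without mock array 1 (0.11), estriol array 1 (0.089) or estriol array 2 (0.0799). Of the 10 meiosis genes, 4 rose (40%, beside 17.8% of all genes). These were DFO (1.31 ± 0.22), needed for meiotic DNA breaks, RCK (0.86 ± 0.16), a crossover helicase, SDS (0.84 ± 0.16), a meiotic cyclin, and JASON (0.77 ± 0.2), which acts in male meiosis. The call for JASON was lost without mock array 2 (adjusted p = 0.0744) or estriol array 1 (adjusted p = 0.0532).

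Subunits of the nuclear RNA polymerases and genes that reshape chromatin were also mostly above their mock levels. Of 17 polymerase subunits 14 rose, with a median of 0.775. NRPB9A, a small subunit of RNA polymerase II, had 6.14 and 6.3 in estriol roots, against 4.36 and 3.74 in mock roots, a change of 2.17 ± 0.25 (adjusted p = 8.39e-05). It stood apart from the other subunits, whose highest change was that of NRPD2B at 1.07 ± 0.24. NRPB7 rose by 0.99 ± 0.2 and NRPD7 by 0.98 ± 0.28, a call for NRPD7 that was lost without mock array 1 (adjusted p = 0.147), estriol array 1 (0.0556) or estriol array 2 (0.108). The 3 that did not pass, named after their values were seen, were NRPE3B at 0.45, NRPB6B at 0.3 and NRPA2 at 0.12. The count of 14 was 7 without mock array 1 and 6 without estriol array 2. Of 21 chromatin remodelling genes, a list that also holds histone deacetylases, histone chaperones, a histone demethylase and a DNA glycosylase, 12 rose, none fell, and all 21 changes were above 0, with a median of 0.54. At an unadjusted p under 0.05 in limma, 15 were higher and 0 lower. ATRX, a remodeller that helps place histone H3.3, had 10.13 and 9.94 in estriol roots, against 8.84 and 8.51 in mock roots (change 1.36 ± 0.16, adjusted p = 8.31e-05). CHR24, CHR40 and CHR23 rose by 1.25 ± 0.14, 1.18 ± 0.18 and 1.06 ± 0.16. The count of 12 was 7 without estriol array 2 and 5 on the arrays of this line alone.

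Other nuclear and housekeeping lists moved less. Of 12 LSM and RNA splicing genes 1 rose (8.33%), and of 9 Mediator subunits 1 rose (11.1%). Of 8 histone genes 2 rose (25%) and 1 fell (12.5%). Of all genes, 17.8% rose and 16.2% fell. The medians of these 3 lists were 0.2675, 0.275 and 0.37, above the 0.11 of all genes. At an unadjusted p under 0.05 in limma, 5, 2 and 3 of their members were higher and 0, 0 and 2 lower. Of 63 plastid-encoded genes none passed the threshold in either direction, and limma gave none an unadjusted p under 0.05. Their median change was -0.03 and their changes ran from -0.265 to 0.145. Of 12 light-harvesting and chlorophyll genes 1 rose and none fell (1 higher and 1 lower at an unadjusted p under 0.05), with a median of -0.21.

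**Figure D2:**
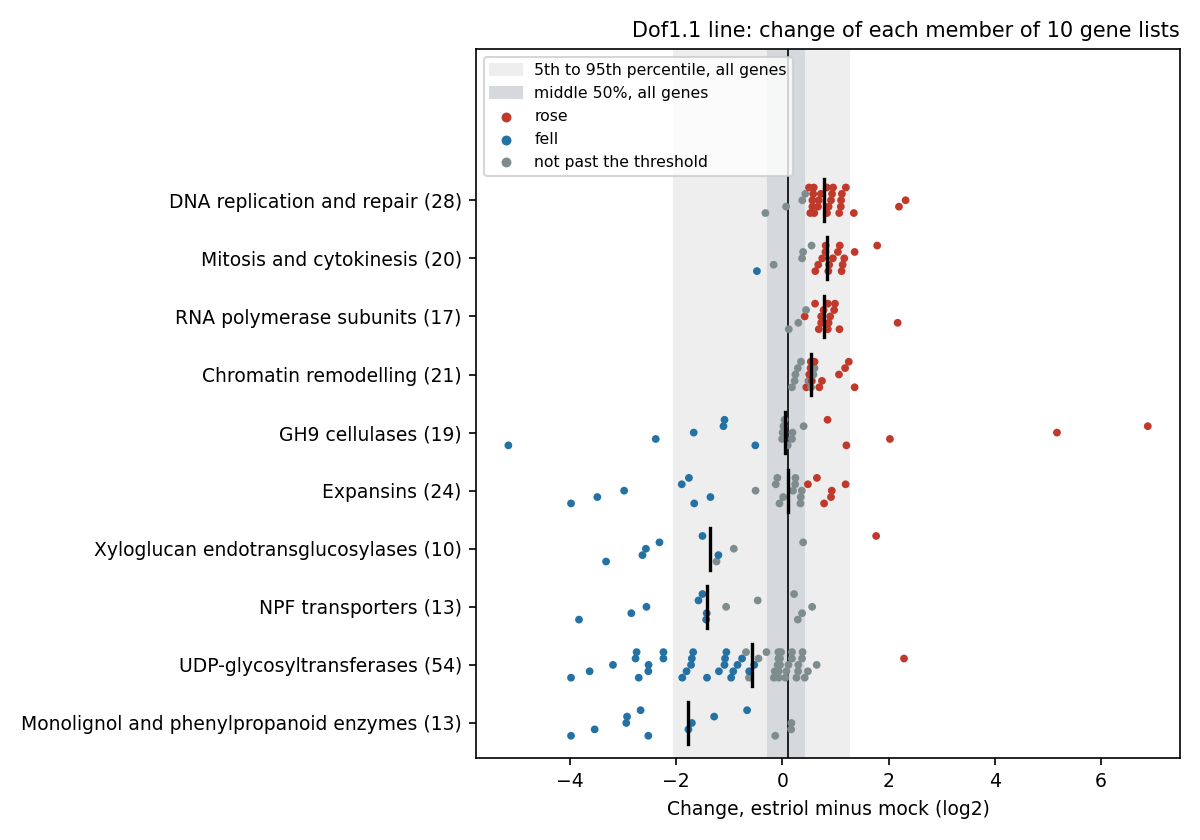
Each point is the log2 change of 1 measured gene in estriol against mock roots of the Dof1.1 line, coloured by whether it rose, fell or did not pass the threshold. Short black bars are list medians, the long line is the median of all genes (0.11), and grey bands hold the middle 50% and the range from the 5th to the 95th percentile of all genes (-2.04 to 1.25). The replication, mitosis, polymerase and chromatin lists form tight clouds right of the all-gene median, while monolignol, glycosyltransferase and NPF genes spread far to the left.

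Many genes of phenolic metabolism fell. Monolignols are the phenolic building blocks of lignin, and plants store them as glucosides that are split again before laccases and peroxidases join them. Of 13 measured genes of this pathway 10 fell and none rose (0 higher at an unadjusted p under 0.05 in limma), with a median change of -1.77. The glucosyltransferase UGT72E1 had 4.41 and 4.2 in estriol roots, against 8.41 and 8.16 in mock roots. It fell by 3.98 (SE 0.36, adjusted p = 1.69e-05). Its relatives UGT72E2 and UGT72E3, which act on monolignols, changed by -2.52 ± 0.22 and -1.71 ± 0.3. The glucosidases BGLU45 and BGLU46, which release monolignols, fell by 2.67 (SE 0.31) and 1.77 (SE 0.31). Thus both the storing and the releasing enzymes were lower in estriol roots. UGT72E2 was dim in estriol roots and UGT72E3 in both groups.

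At the ends of the pathway, the laccase LAC16 had 4.59 and 5.01 in estriol roots, against 8.24 and 8.43 in mock roots (change -3.53 ± 0.39, adjusted p = 6.32e-05). The peroxidase PRX72 (AT5G66390) had 8.78 and 9.06 in estriol roots, against 11.65 and 12.04 in mock roots (change -2.92 ± 0.33, adjusted p = 7.32e-05). ALDH2C4, which makes ferulic and sinapic acid, had 8.71 and 8.45 in estriol roots, against 11.63 and 11.41 in mock roots (change -2.94 ± 0.3, adjusted p = 3.95e-05). In each of these 3 genes the mock arrays were several-fold brighter than the estriol arrays. Earlier steps moved less. HCT, an acyltransferase of the shared pathway, fell by 0.67 (SE 0.15), and CCR2, a cinnamoyl-CoA reductase, by 1.28 (SE 0.43, adjusted p = 0.0418). The call for CCR2 was lost in 11 of its alternatives. Its adjusted p was 0.0768 on the arrays of this line alone, 0.232 without mock array 1 (change -0.93), 0.297 without estriol array 2 (change -0.685) and 0.0534 to 0.0571 without single arrays of the other lines. The 3 genes that did not pass were 4CL8 at 0.17, PRX52 at 0.17 and CCOAMT at -0.14. Of these, 4CL8 and CCOAMT were dim in both groups. Of these 13 genes, 4CL8, CCOAMT, CCR2, HCT, UGT72E2 and UGT72E3 were named after their values were seen.

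**Figure D3:**
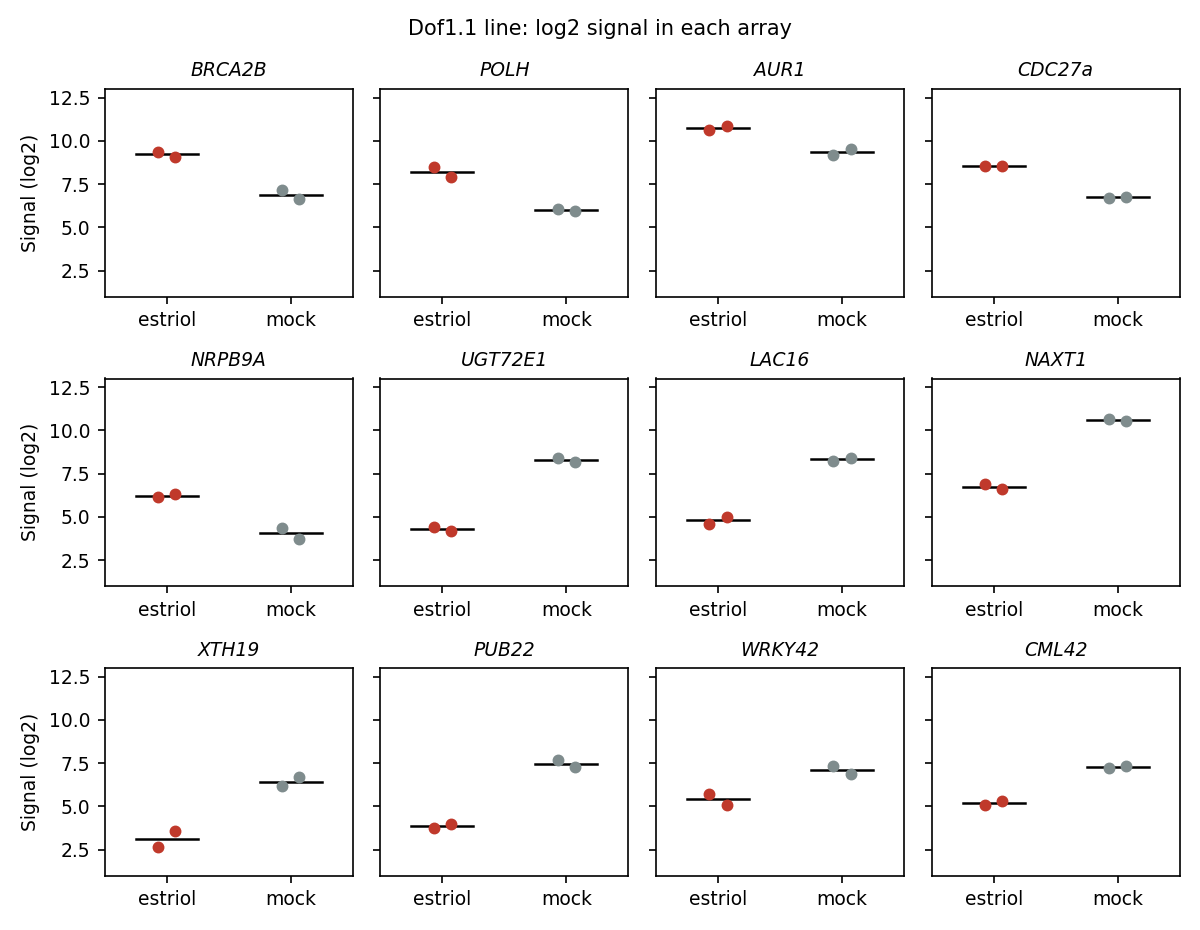
Points are log2 signals of single arrays, 2 from estriol and 2 from mock roots of the Dof1.1 line, and bars are group means. In the first 5 panels the estriol arrays lie above the mock arrays by 1.36 (AUR1) to 2.32 (BRCA2B) on average, and in the other 7 they lie below by 1.7 (WRKY42) to 3.98 (UGT72E1).

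UDP-glycosyltransferases, which attach sugars to hormones and secondary metabolites, had the most falls by number of the lists described. Of 54 measured members 26 fell (48.1%) and 1 rose, with a median of -0.58. By share, the monolignol list had more falls (76.9%). The 26 include UGT72E1, UGT72E2 and UGT72E3, which were also counted in the monolignol list. UGT73D1 had 3.21 and 3.42 in estriol roots, against 7.05 and 6.84 in mock roots (change -3.63 ± 0.14, adjusted p = 9.97e-08). UGT71C1 fell by 3.19 (SE 0.15) and UGT84A3, which acts on hydroxycinnamic acids, by 2.77 (SE 0.2). UGT74F1, which glucosylates salicylic acid, was the single riser, with 7.5 and 7.25 in estriol roots, against 5.03 and 5.14 in mock roots (change 2.29 ± 0.16, adjusted p = 3.48e-06). UGT73D1 and UGT84A3 were dim in estriol roots. Other detoxification families were mixed. Of 15 glutathione transferases 4 fell (26.7%) and 2 rose (13.3%), beside 16.2% and 17.8% of all genes. The falls included GSTU22 at -4.51 ± 0.16, GSTU28 at -2.55 ± 0.23 and GSTU26 at -2.52 ± 0.23, and the rises GSTU15 at 3.42 ± 0.31. Of 20 CYP71B cytochromes P450 6 fell (30%) and 1 rose (5%), from CYP71B34 at -3.77 ± 0.41 and CYP71B29 at -3.08 ± 0.3 to CYP71B5 at 3.29 ± 0.27. GSTU15 and CYP71B5 were dim in mock roots. Of 32 serine carboxypeptidase-like genes 11 fell (34.4%) and 2 rose (6.25%). Of these falls scpl28 was the deepest, with 6.13 and 6.16 in estriol roots, against 10.95 and 11.18 in mock roots (change -4.92 ± 0.44), while scpl48 rose by 1.68 ± 0.35. Only 3 of the 11 fell at least 2-fold.

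Enzymes that build and loosen the wall moved in both directions. Xyloglucan endotransglucosylases cut and rejoin the chains that tether cellulose, and 6 of 10 measured members fell while 1 rose (median -1.37). XTH19 had 2.66 and 3.57 in estriol roots, against 6.19 and 6.68 in mock roots (change -3.32 ± 0.27, adjusted p = 7.24e-06). XTH32 (-2.63 ± 0.24), XTH33 (-2.57 ± 0.45) and XTH26 (-2.31 ± 0.29) fell too, and XTH29 rose by 1.76 ± 0.32. Among 14 genes that make hemicellulose backbones 8 fell and 2 rose (median -0.77). CSLA03, a mannan synthase-type gene, changed by -2.89 ± 0.19, CSLC12, of a xyloglucan family, by -2.17 ± 0.25, CSLB03 by -1.92 ± 0.34 and CSLD2, a gene of root hair walls, by -1.78 ± 0.15. ATCSLC08 rose instead, with 8.48 and 8.26 in estriol roots, against 6.7 and 6.38 in mock roots (change 1.83 ± 0.16, adjusted p = 1.5e-05). Of 25 TBL genes, which acetylate wall polysaccharides, 11 fell and 3 rose. The deepest falls were those of TBL41 (-3.71 ± 0.24), TBL19 (-3.11 ± 0.27) and TBL30 (-2.33 ± 0.19), while TBL26 rose by 3 ± 0.2. XTH19, CSLA03 and CSLB03 were dim in estriol roots.

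Expansins and GH9 cellulases split into separate groups of risers and fallers. Of 24 expansins, which loosen walls, 7 fell (29.2%) and 6 rose (25%), beside 16.2% and 17.8% of all genes. The falls were larger, all at least 2-fold, and included EXPA18 at -3.98 ± 0.15, EXPA7 at -3.48 ± 0.19 and EXPA8 at -2.98 ± 0.18, while only EXPA4 (1.19 ± 0.19) rose at least 2-fold. The count of 6 risers was 2 without mock array 1, 3 without estriol array 2 and 3 on the arrays of this line alone. Of 19 GH9 cellulases 5 rose (26.3%) and 6 fell (31.6%). GH9A4 had 11.08 and 10.57 in estriol roots, against 3.9 and 3.99 in mock roots, a change of 6.88 ± 0.23 (118-fold, adjusted p = 7.49e-08). GH9B6 had 11.21 and 10.74 in estriol roots, against 5.33 and 6.28 in mock roots (change 5.17 ± 0.32, adjusted p = 1.48e-06). These 2 were far above the other risers, GH9A3 at 2.03 ± 0.3 and GH9B8 at 1.21 ± 0.17 among them. GH9C1 went the other way, with 5.06 and 5.19 in estriol roots, against 10.53 and 10.04 in mock roots (change -5.16 ± 0.19, adjusted p = 9.97e-08). GH9B5 (-2.38 ± 0.24) and GH9C3 (-1.67 ± 0.17) fell less.

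Transporter families differed in how they moved. Of 13 NPF genes, a family that carries nitrate, peptides, hormones and glucosinolates, 7 fell and none rose (1 higher at an unadjusted p under 0.05 in limma). NAXT1, a nitrate exporter of the root plasma membrane, had 6.89 and 6.62 in estriol roots, against 10.65 and 10.52 in mock roots (change -3.83 ± 0.17, adjusted p = 2.06e-07). NPF6.4 (AT3G21670) fell by 2.56 (SE 0.47), and the glucosinolate importers GTR1 (-1.51 ± 0.14) and GTR2 (-1.42 ± 0.16) fell as well. Of 14 SWEET sugar transporters 4 fell (28.6%) and 3 rose (21.4%), beside 16.2% and 17.8% of all genes. Their median change was 0.165. SWEET2, a vacuolar carrier of root cells, had 5.01 and 4.35 in estriol roots, against 8.54 and 8.02 in mock roots (change -3.6 ± 0.29, adjusted p = 7.56e-06). The vacuolar carriers SWEET16 (-2.7 ± 0.22) and SWEET17 (-2.62 ± 0.27) fell, as did SWEET1 (-2.23 ± 0.34), and SWEET17 was dim in estriol roots. SWEET13, a sucrose exporter, had 8.89 and 9.47 in estriol roots, against 7.35 and 7.85 in mock roots (change 1.58 ± 0.26, adjusted p = 0.000934). SWEET8, known from pollen, rose by 1.81 ± 0.29 and was dim in mock roots. Without the genes of lowest signal, 1 of the 3 rises was left. Of 8 CHX cation exchanger genes 2 fell (25%) and 1 rose (12.5%), and 5 of the 8 were dim in both groups. CHX16 fell by 3.49 (SE 0.28).

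Several small lists had more falls than rises. Of 10 PUB ubiquitin ligases 5 fell and 1 rose. PUB22, which restrains immune signalling together with PUB23 and PUB24, had 3.76 and 3.99 in estriol roots, against 7.67 and 7.28 in mock roots (change -3.6 ± 0.23, adjusted p = 1.58e-06). PUB23 had 7.71 and 7.77 in estriol roots, against 10.15 and 10.05 in mock roots (change -2.36 ± 0.18, adjusted p = 5.32e-06). PUB24 changed by -1.14 ± 0.28 and PUB19 by -1.55 ± 0.24. The call for PUB24 was lost without mock array 1 (adjusted p = 0.083) or estriol array 2 (adjusted p = 0.0598). Of 7 calmodulin-like proteins, which sense calcium, 4 fell and none rose (0 higher at an unadjusted p under 0.05 in limma). They were CML23 at -2.18 ± 0.35, CML42 at -2.07 ± 0.21, CML38 at -1.63 ± 0.2 and CML43 at -1.62 ± 0.29, all dim in estriol roots except CML42. Of 7 WRKY factors 4 fell, WRKY29 (-3.96 ± 0.2), WRKY42 (-1.7 ± 0.23), WRKY47 (-1.58 ± 0.21) and WRKY6 (-0.96 ± 0.23), and WRKY20 rose by 1.43 ± 0.16. The call for WRKY6 was lost without mock array 1 (adjusted p = 0.0693). Of 5 jacalin lectins 4 fell, from JAL22 at -3.94 ± 0.44 over JAL31 at -3.31 ± 0.32 and JAL34 at -2.61 ± 0.18 to JAL33 at -1.54 ± 0.29, and JAL23, dim in both groups, did not pass (0.18). Of 7 methionine sulfoxide reductases, which repair oxidised proteins, 4 fell, MSRB6 (-3.89 ± 0.29) and MSRB9 (-1.99 ± 0.34) among them. JAL31, MSRB6 and PUB19 were dim in estriol roots. COR47, a cold-induced dehydrin, had 8.34 and 8.36 in estriol roots, against 10.49 and 10.47 in mock roots (change -2.13 ± 0.13).

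Auxin genes with a symbol were few. Of 6 GH3 enzymes, which conjugate hormones to amino acids, 4 fell and none rose (0 higher at an unadjusted p under 0.05 in limma), GH3.17 (-3.38 ± 0.25) and GH3.3 (-3.35 ± 0.37) among them. Of 4 YUC auxin synthesis enzymes measured, 1 rose (25%, beside 17.8% of all genes) and none fell. At an unadjusted p under 0.05 in limma, 1 was higher and 0 lower. The riser was YUC6, at 1.63 ± 0.28, with 8.89 and 8.7 in estriol roots, against 7.44 and 6.89 in mock roots.

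Root cell types were represented by few defining markers, and their part in these results was not tested. A marker was counted only where its locus was measured and the annotation used gives that locus the marker's name. Markers measured without such a name were not looked at. Both root hair markers counted of 22, EXPA18 and EXPA7, fell as given above. GSO1, a receptor kinase of Casparian strip formation and the 1 counted of 10 endodermis markers, changed by -2.37 ± 0.24. GUT2, a xylan synthesis gene and the 1 counted of 16 xylem markers, changed by -0.97 ± 0.13. Of 4 sieve element and protophloem markers counted, CLE25 rose by 2.43 ± 0.15 and OPS by 0.91 ± 0.15. CLE26 (0.67, adjusted p = 0.0994) and CLE45 (0.04, adjusted p = 0.904, dim in both groups) did not pass. Of the 4 companion cell markers counted, SWEET13 rose, GTR1 and GTR2 fell, and SWEET11 did not pass (1.48, adjusted p = 0.064). On the arrays of this line alone SWEET11 passed as a riser. All 3 markers of procambium counted rose, PHV by 2.03 ± 0.16, MOL1 by 1.74 ± 0.17 and LHW by 0.64 ± 0.16. The call for LHW was lost without mock array 2 (adjusted p = 0.0735) or estriol array 1 (adjusted p = 0.0677). No member of the leaf photosynthesis list was counted.

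A smaller set of genes moved from dim mock levels. LCR and SCR-like genes encode small secreted cysteine-rich peptides best known from pollen and pistil. Of 80 measured members, 67 were dim in mock roots and 57 in estriol roots. In all 15 rose, 18.8% of the list against 17.8% of all genes, and none fell (0 lower at an unadjusted p under 0.05 in limma). LCR29 had 11.65 and 11.78 in estriol roots, against 2.38 and 4.09 in mock roots (change 8.48 ± 0.49, adjusted p = 8.36e-07). LCR16 had 9.52 and 9.46 in estriol roots, against 1.97 and 1.87 in mock roots (change 7.57 ± 0.16, adjusted p = 5.76e-09). Both genes were dim in mock roots and well above the array medians in estriol roots. LCR30 and LCR42 rose by 7.42 ± 0.28 and 8.26 ± 0.35. The median change of the whole list was 0.13, close to the 0.11 of all genes.

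The count of risers among genes that remove ubiquitin hung on single arrays. Of 12 UBP ubiquitin proteases 5 rose (41.7%) and 1 fell (8.33%), beside 17.8% and 16.2% of all genes. The largest rise was that of UBP21 at 1.62 ± 0.16. The count of 5 risers was 2 without mock array 2, 1 without estriol array 1 and 2 on the arrays of this line alone.

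Many of the changes were seen in the other lines too. Of the 2940 risers, 1777 (60.4%) also rose with Dof2.2, beside 14.8% of all genes, and 1143 (38.9%) with PEAR2, beside 8.33% of all genes. These shared risers made up 72.5% of the 2452 risers of Dof2.2 and 82.9% of the 1378 of PEAR2. Of the 2683 fallers, 1982 (73.9%) also fell with Dof2.2, beside 13.6% of all genes, and 1557 (58%) with PEAR2, beside 10.4% of all genes. They made up 88% of the 2252 fallers of Dof2.2 and 90.2% of the 1727 of PEAR2. For 1005 risers and 580 fallers the change passed in neither other line, which by itself does not show a difference between lines. The difference was therefore tested. The change differed from that in the Dof2.2 line for 254 genes (1.53%), being higher for 157 (0.949%) and lower for 97 (0.586%). It differed from that in the PEAR2 line for 482 genes (2.91%), being higher for 205 (1.24%) and lower for 277 (1.67%). Both tests use the Dof1.1 arrays, and the lines compared also differ in background.

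The replication, mitosis and polymerase lists had medians above those of all genes in all 3 lines. The DNA replication and repair list had median changes of 0.78 with Dof1.1, 0.605 with Dof2.2 and 0.4175 with PEAR2, beside all-gene medians of 0.11, 0.105 and 0.03. In these lines 24, 22 and 11 of its 28 members rose. The mitosis list had medians of 0.84, 0.615 and 0.285, and 15, 12 and 4 of its 20 members rose. The RNA polymerase list had medians of 0.775, 0.67 and 0.42, and 14, 10 and 4 of its 17 members rose. No single member of these 3 lists had a difference past the threshold against either line, but with 17 to 28 members and 1.53% or 2.91% of all genes past it, nothing is read from these counts of 0. At an unadjusted p under 0.05 in limma, 0 of 28, 2 of 20 and 1 of 17 members of the replication, mitosis and polymerase lists differed from Dof2.2, beside 11% of all genes. Against PEAR2 the counts were 6, 9 and 2, beside 15.5% of all genes. The monolignol list had medians of -1.77, -1.04 and -1.15, with 10, 7 and 7 of its 13 members fallen. None of them passed the threshold for a difference, and 5 against Dof2.2 and 6 against PEAR2 had an unadjusted p under 0.05 in limma, beside the same 11% and 15.5% of all genes.

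**Figure D4:**
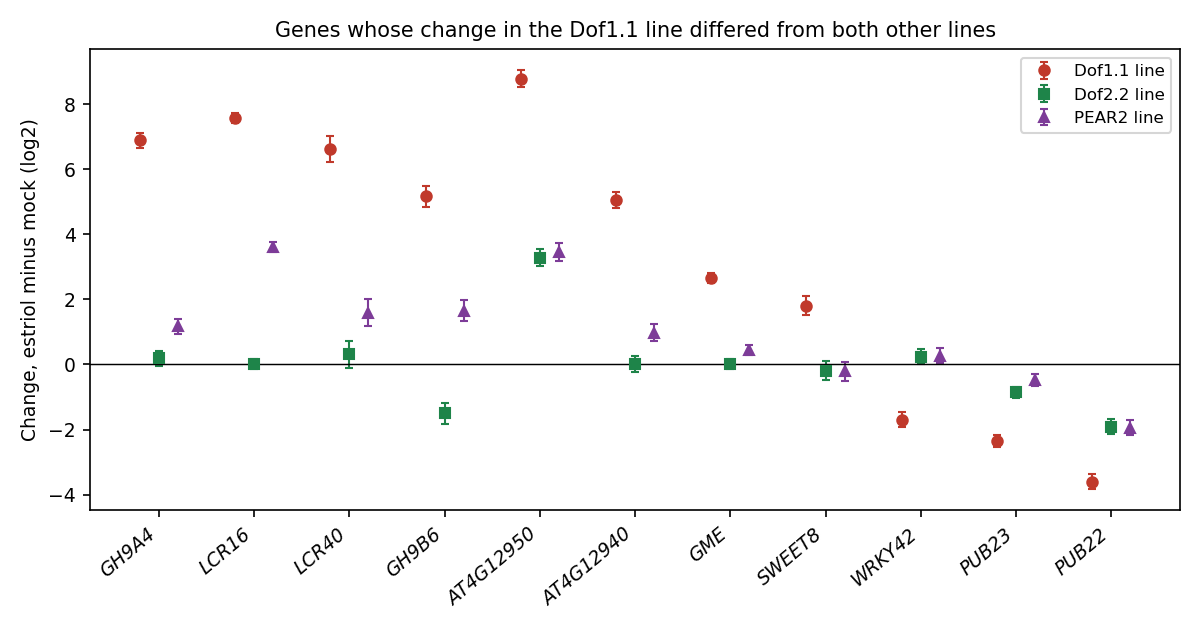
Points are log2 changes of estriol against mock roots for Dof1.1 (circles), Dof2.2 (squares) and PEAR2 (triangles), and error bars are the SE from the limma fit (2 arrays per group). In the 11 genes shown the Dof1.1 change differed from both others past the threshold, with rises of up to 8.78 (AT4G12950) and falls of down to -3.6 (PUB22).

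Several single genes did differ. GH9A4 changed by 6.88 with Dof1.1, 0.19 with Dof2.2 and 1.18 with PEAR2, so the Dof1.1 change was higher by 6.69 ± 0.32 (adjusted p = 1.31e-05) and 5.71 ± 0.32 (adjusted p = 3.71e-05). GH9B6 changed by 5.17, -1.49 and 1.66, in the same order of lines, giving differences of 6.67 ± 0.46 (adjusted p = 6.34e-05) and 3.51 ± 0.46 (adjusted p = 0.00376). For these 2 genes the Dof1.1 line alone had a change above 5. LCR16 changed by 7.57, 0.02 and 3.61, with differences of 7.55 ± 0.23 and 3.96 ± 0.23. LCR40 changed by 6.62, 0.31 and 1.59, with differences of 6.31 ± 0.58 and 5.02 ± 0.58. All 4 of these differences passed the threshold. LCR42 changed by 8.26, 3.75 and 8.21, and its difference of 4.5 ± 0.49 from the Dof2.2 line passed. GME, which makes GDP-galactose for ascorbate and wall synthesis, was bright throughout. It had 12.2 and 11.93 in estriol roots, against 9.44 and 9.39 in mock roots. It changed by 2.65, 0.02 and 0.45, with differences of 2.63 ± 0.21 (adjusted p = 0.000166) and 2.2 ± 0.21 (adjusted p = 0.00083), and was named after its values were seen. SWEET8 changed by 1.81, -0.19 and -0.21, with differences of 2 ± 0.41 (adjusted p = 0.0436) and 2.02 ± 0.41 (adjusted p = 0.03). Leaving out single arrays, its call against Dof2.2 was lost in 10 of 12 cases (adjusted p up to 0.142) and against PEAR2 in 7 (up to 0.118).

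Falls that differed from both other lines included WRKY42, PUB23 and PUB22. WRKY42 had 5.73 and 5.09 in estriol roots, against 7.36 and 6.86 in mock roots. Its changes were -1.7 with Dof1.1, 0.23 with Dof2.2 and 0.27 with PEAR2, with differences of -1.93 ± 0.33 (adjusted p = 0.0172) and -1.97 ± 0.33 (adjusted p = 0.013). PUB23 changed by -2.36, -0.86 and -0.475, with differences of -1.5 ± 0.26 (adjusted p = 0.0174) and -1.89 ± 0.26 (adjusted p = 0.00458). PUB22 changed by -3.6, -1.92 and -1.94, with differences of -1.68 ± 0.32 (adjusted p = 0.0331) and -1.66 ± 0.32 (adjusted p = 0.0258). These calls were narrow. That of PUB22 against Dof2.2 was lost with same-numbered arrays as a replicate block (adjusted p = 0.0593), on the arrays of those lines alone (0.0953) and without any of 9 single arrays (0.0503 to 0.131), and against PEAR2 without any of 7 (0.0541 to 0.0964). That of PUB23 against Dof2.2 was lost without any of the 4 Dof1.1 arrays (0.0538 to 0.0743) or Dof2.2 estriol array 1 (0.0625). That of WRKY42 was lost against Dof2.2 on the arrays of those lines alone (0.0702) and without Dof1.1 mock array 1 (0.0682), Dof2.2 mock array 2 (0.0509) or Dof2.2 estriol array 2 (0.0631), and against PEAR2 without PEAR2 mock array 2 (0.0593) or PEAR2 estriol array 2 (0.0548).

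Several genes fell further with Dof1.1 than with PEAR2 and also fell steeply with Dof2.2. GH9C1 changed by -5.16 with Dof1.1 and -2.25 with PEAR2 (difference -2.91 ± 0.27, adjusted p = 0.000723). EXPA18 changed by -3.98 and -1.88 (difference -2.1 ± 0.22), GSTU22 by -4.51 and -2.22 (difference -2.29 ± 0.23), WRKY29 by -3.96 and -1.6 (difference -2.35 ± 0.29), CHX16 by -3.49 and -1.02 (difference -2.46 ± 0.4) and NAXT1 by -3.83 and -2.09 (difference -1.74 ± 0.24). All 6 differences passed the threshold, that of CHX16 not without PEAR2 mock array 2 (adjusted p = 0.058). With Dof2.2 the changes were -5.92 for GH9C1, -5.17 for EXPA18, -4.12 for GSTU22, -2.96 for WRKY29, -2.21 for CHX16 and -3.69 for NAXT1. For EXPA18 the Dof1.1 fall was smaller than that with Dof2.2 (difference 1.19 ± 0.22, adjusted p = 0.026), a call lost in 10 of 12 cases when single arrays were left out (adjusted p up to 0.0929), and for the other 5 the difference from Dof2.2 did not pass (adjusted p = 0.29 for GH9C1). The change of scpl28 was -4.92 with Dof1.1, -5.09 with Dof2.2 and -1.93 with PEAR2, and its difference of -3 ± 0.62 from PEAR2 (adjusted p = 0.0336) was lost with same-numbered arrays as a replicate block (0.0927) and without any single Dof1.1 or PEAR2 array (0.0853 to 0.115). UGT84A3 changed by -2.77, -1.86 and -0.67 in the same order of lines, and its difference of -2.1 ± 0.29 from PEAR2 passed (adjusted p = 0.00503).

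Changed genes often lay beside each other. Over 10382 pairs of neighbouring tested genes, both members rose at least 2-fold in 125 pairs, and 17% of the neighbours of such risers had likewise risen, beside 6.99% of all genes. Both fell at least 2-fold in 246 pairs, and 20.2% of the neighbours of such fallers had fallen, beside 11.5% of all genes. There were 17 runs of 3 or more neighbouring risers with 55 genes, and 35 runs of neighbouring fallers with 114 genes. Neighbours can be copies of 1 gene whose probes pick up each other's transcripts, and their part in these shares was not tested.

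The longest run held 6 neighbouring genes of chromosome 4 that all rose, AT4G12910 to AT4G12960, which were named after their values were seen apart from scpl20 and AT4G12950. AT4G12950 had 12.63 and 12.81 in estriol roots, against 3.68 and 4.21 in mock roots, a change of 8.78 ± 0.27 (adjusted p = 4.96e-08). AT4G12940, next to it, had 9.77 and 10.17 in estriol roots, against 4.67 and 5.16 in mock roots (change 5.05 ± 0.25). The remaining 4 rose less. GILT (AT4G12960), named for a thiol reductase, rose by 1.81 ± 0.27, the carboxypeptidase-like gene scpl20 (AT4G12910) by 1.55 ± 0.33, AT4G12930 by 1.25 ± 0.3 and UND (AT4G12920) by 1.04 ± 0.18. All except scpl20, AT4G12940 and AT4G12950 were dim in mock roots. On either side of the run, STOMAGEN (AT4G12970) did not pass (0.21) and AT4G12900 fell by 0.57 (SE 0.18, adjusted p = 0.0371), both at dim levels. The call for AT4G12900 was lost in 8 alternatives, and its adjusted p was 0.201 when mock array 2, 0.121 when estriol array 1 and 0.108 when estriol array 2 was left out. Both flanking genes were named after their values were seen. Of the 6 genes, AT4G12950 changed by 3.28 with Dof2.2 and 3.46 with PEAR2, so its Dof1.1 change was higher by 5.5 ± 0.38 and 5.32 ± 0.38 (adjusted p = 6.34e-05 and 0.00021). AT4G12940 changed by 0.01 with Dof2.2 and 0.975 with PEAR2, with differences of 5.04 ± 0.36 and 4.08 ± 0.36 (adjusted p = 7.34e-05 and 0.000509). The gene scpl20 fell by 1.03 with Dof2.2 (adjusted p = 0.0386) and changed by -0.18 with PEAR2. Its difference of 2.58 ± 0.46 from Dof2.2 passed (adjusted p = 0.0226) but was lost in 7 alternatives (adjusted p 0.0536 to 0.087), among them leaving out either Dof1.1 mock array, either Dof2.2 estriol array or Dof2.2 mock array 2. No difference passed for UND, AT4G12930 or GILT. The call for AT4G12930 was lost without estriol array 2 (adjusted p = 0.0515).

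**Figure D5:**
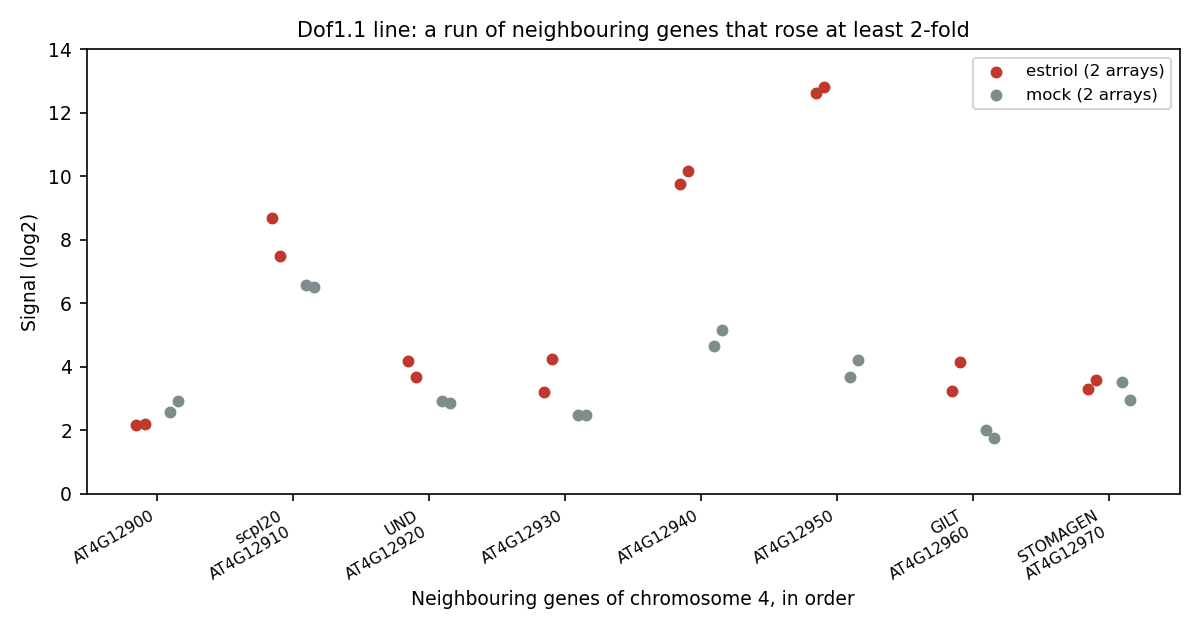
Points are log2 signals of single arrays for 8 neighbouring genes of chromosome 4 in their order, with estriol arrays left of mock arrays for each gene. The 6 genes from scpl20 to GILT lie higher in estriol roots, by 1.04 (UND) to 8.78 (AT4G12950) on average. Of the outer 2 genes AT4G12900 changed by -0.57, and STOMAGEN (0.21) did not pass the threshold.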

How the data were processed

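Deposited values are log2 signals of one-colour arrays, credited to RMA (no version) in the submitters' processing notes, and were used as the authors deposited them. The genome build is not given in the sources used here. Of 28583 entries, 16722 name 1 gene, of which 16574 matched the TAIR10.1 annotation by Entrez identifier, 140 by name and 8 not. Of several entries for a gene (148 genes) the one with the highest mean was kept, leaving 16548 genes.

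limma 3.58.1 (R 4.3.3) fitted 6 group means over all 12 arrays with empirical Bayes moderation. P-values are two-sided, adjusted by Benjamini and Hochberg over all genes, threshold 0.05; changes are estriol minus mock. The fit was tested on simulated data. No array pair was identical. P-values rest on 1 spread per gene, pooled over the 2 arrays of each of the 6 groups and then moderated. Arrays of the other lines therefore enter the p-values of the Dof1.1 line. On the Dof1.1 arrays alone 4359 genes changed, against 5623 in the main fit.

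Alternatives were quantile and 75th percentile scaling, no genes of lowest signal, trended robust moderation, array weights, fewer lines, replicate blocks, the mean of several entries, every entry, single arrays left out and a 2-fold minimum.

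Genes could be named if among the 10 largest rises and falls, or per list up to 4 largest rises and falls past the threshold with arrays that do not overlap, all members of lists of at most 10, and, for each contrast between lines, the top and bottom 10, and the 10 that differ most from both lines in each direction. Lists were meant to be read from product descriptions; the annotation used has only symbols and synonyms, which were used instead. Some results are not reported here. Members and lists were chosen with earlier results of these data known.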

Additional observations from a re-analysis of the deposited data

Results flagged for a closer look

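Changes in the Dof1.1 line that differed from those in another line, by the test of the difference itself (limma, adjusted p under 0.05), are given with their values. Above the Dof2.2 line were LCR16 (7.55), GH9A4 (6.69), GH9B6 (6.665), LCR40 (6.31), AT4G12950 (5.5), AT4G12940 (5.045), LCR42 (4.505), GME (2.63), scpl20 (2.58), LCR30 (2.35), SWEET8 (2.0) and EXPA18 (1.185, a smaller fall). Below it were XTH29 (-2.235, a smaller rise), PUB24 (-1.97), WRKY42 (-1.93), PUB22 (-1.68), PUB23 (-1.5) and CML42 (-1.485). Above the PEAR2 line were GH9A4 (5.705), AT4G12950 (5.32), LCR40 (5.02), AT4G12940 (4.08), LCR16 (3.96), GH9B6 (3.515), GME (2.2), SWEET8 (2.02) and PHV (1.035). Below it were scpl28 (-2.995), GH9C1 (-2.91), CHX16 (-2.465), WRKY29 (-2.355), GSTU22 (-2.29), EXPA18 (-2.1), UGT84A3 (-2.1), WRKY42 (-1.97), PUB23 (-1.885), NAXT1 (-1.74), GH3.17 (-1.695), PUB22 (-1.66), EXPA8 (-1.6), GSO1 (-1.56), EXPA7 (-1.545), UGT71C1 (-1.215), UGT73D1 (-1.13), COR47 (-0.95) and GTR1 (-0.915). Of these 46 differences, 22 passed whichever single array was left out and 24 did not. The 15 lost in at least 6 of the 12 cases were XTH29 and CML42 (11 each), PUB24, EXPA18 and SWEET8 against Dof2.2 and GTR1 against PEAR2 (10 each), PUB22 against Dof2.2 (9), scpl28, COR47 and PHV (8 each), PUB22, SWEET8 and GSO1 against PEAR2 (7 each), and GH3.17 and UGT73D1 (6 each), with adjusted p up to 0.155. The 9 lost in fewer cases were PUB23 and scpl20 against Dof2.2 and UGT71C1 against PEAR2 (5 each), LCR30 against Dof2.2 (4), WRKY42 against Dof2.2 and EXPA7 against PEAR2 (3 each), and WRKY42 (2), EXPA8 (1) and CHX16 (1) against PEAR2.

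Signal also appeared in entries that the comparisons do not use. Of the 11861 entries without exactly 1 gene name, 2238 were higher and 2303 lower with estriol in the Dof1.1 line, together 38.3%.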

How the results depend on the processing

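On all entries of the table, 10324 changed in the Dof1.1 line (5280 higher, 5044 lower), 397 differed from the Dof2.2 line (173 lower) and 854 from the PEAR2 line (324 higher, 530 lower), since more features were tested. With a 2-fold minimum 3065 genes changed, 1156 of them higher. On the arrays of the compared lines alone, 154 genes differed from the Dof2.2 line (46 lower) and 439 were lower than in the PEAR2 line. With array weights 59 were lower than in the Dof2.2 line. The cause of these shifts was not tested. Leaving out 1 array at a time, where the lone array is assumed to vary like the other groups, gave 4358 to 5668 changed genes (2094 to 2929 higher, 2234 to 2739 lower). It gave 148 to 277 against the Dof2.2 line (103 to 162 higher, 45 to 115 lower) and 180 to 640 against the PEAR2 line (96 to 236 higher, 84 to 404 lower). The count of 254 was 148 without Dof1.1 estriol array 1, 164 and 169 without Dof1.1 mock arrays 1 and 2, and 167 without Dof2.2 mock array 1. Its 97 lower genes were 56 without Dof1.1 estriol array 2 and 59 without Dof2.2 estriol array 2. The count of 482 was 299 and 293 without Dof1.1 estriol arrays 1 and 2, 255 and 270 without Dof1.1 mock arrays 1 and 2, 248 and 202 without PEAR2 estriol arrays 1 and 2, and 180 and 193 without PEAR2 mock arrays 1 and 2.

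Deviations of same-numbered arrays correlated at 0.3177 (Dof1.1), 0.168 (Dof2.2) and 0.1273 (PEAR2), over 2 pairs each, which does not show that the numbers pair samples. With such pairs as a replicate block, 6525 genes changed, 224 differed from the Dof2.2 line and 482 from the PEAR2 line, and with the number over all lines as a block these were 5761, 251 and 501. Of 4495 values of named genes under alternatives, differences between lines included, 4232 kept their direction and side of the threshold, 245 lost their call (19 of them by the 2-fold minimum), 10 gained one and 8 changed sign, none of these 8 past the threshold. Leaving out single arrays, NRPB6B ran from -0.065 to 0.665, CCOAMT from -0.375 to 0.105, PRX52 from -0.125 to 0.455 (-0.06 without mock array 2), STOMAGEN from -0.075 to 0.495 and CLE45 from -0.155 to 0.235 (-0.125 without mock array 1). CLE45 was at -0.0448 after quantile normalization. Levels under about 3.5 are not shown to lie above background, which limits folds of dim genes.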

Other observations

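Further lists of the Dof1.1 line are given as counts, beside the 17.8% of all genes that rose and the 16.2% that fell. Of 26 bZIP factors 9 fell (34.6%) and 3 rose, of 18 RALF peptides 5 fell (27.8%) and 2 rose, and of 12 dehydrins and cold-regulated genes 3 fell (25%) and none rose (0 higher at an unadjusted p under 0.05 in limma). Of 17 IQD proteins 6 rose (35.3%) and 3 fell, and of 16 TRM microtubule proteins 3 rose (18.8%) and 6 fell (37.5%). Of 23 SEC and VPS trafficking genes 5 rose (21.7%) and none fell (0 lower at an unadjusted p under 0.05 in limma), a count that was 3 after quantile normalization or 75th percentile centring, 2 on the arrays of this line alone or without estriol array 2, and 3 without mock array 2, estriol array 1 or either PEAR2 mock array. The 3 bZIP rises were 1 without estriol array 1, the 5 RALF falls 3 without mock array 2, and the 6 TRM falls 3 without estriol array 1. Among 10 plant defensins 1 rose (10%), and among 10 glutamate receptor channels 2 rose (20%). The shares of risers among the SEC and VPS, glutamate receptor and TRM genes are near that of all genes.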
